A study of Rattus norvegicus with 12 samples.

Results

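The transcription factors of epithelial-mesenchymal transition (EMT) and the proteins they are known to act on were described in rat kidney, as the 10 genes Snai1, Snai2, Twist1, Twist2, Zeb1, Zeb2, Cdh1, Cdh2, Cdh16 and Vim. They were chosen by gene symbol. Each symbol had a single entry in both deposited tables, of 22132 entries in the table that holds control and adenine and 32623 in the one that holds sham and UUO. Libraries of poly(A) RNA came from kidney tissue of 12 wild-type male SD rats, 8 weeks old at purchase, with 3 rats in each of 4 groups. The adenine group received adenine by gavage, at a daily 220 mg/kg over 3 weeks, while the control group received saline over the same time. In the UUO group the left ureter had been ligated (unilateral ureteral obstruction), the sham group had the same operation without ligation, and both were studied 2 weeks after surgery. Both treatments are used as models of renal fibrosis, a chemical one and a surgical one.

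In EMT, an epithelial cell loses its cell-cell junctions and takes on features of a mesenchymal cell. Factors of the Snail (Snai1, Snai2), Twist (Twist1, Twist2) and Zeb (Zeb1, Zeb2) families bind short DNA motifs called E-boxes, and Snail and Zeb factors are best known as repressors of Cdh1, the gene for E-cadherin. E-cadherin and Ksp-cadherin (Cdh16) join the epithelial cells of kidney tubules, N-cadherin (Cdh2) is found in mesenchymal cells and also in proximal tubules, and vimentin (Vim) forms the intermediate filaments of mesenchymal cells, leukocytes, endothelium and podocytes. In the kidney, the words partial EMT are used for injured tubule cells that express some of these genes without leaving the epithelium. In whole tissue, a change in the number of cells of a type and a change in RNA per cell cannot be told apart.

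Snai1, Twist2, Zeb2 and Vim rose in both models. RefSeq promoter sequences (assembly GRCr8) were found for 6 of the 10 genes, and those of the 4 genes that rose in both models are given here as the 250 bases before the annotated start, the genes with a call in the same direction in both models. Capitals mark the E-box CANNTG, where N is any base. This motif reads the same way on both strands, and it includes CACCTG and its reverse complement CAGGTG, the forms known to be bound by Snail and Zeb factors.
Snai1, chr3:176667226-176667475, plus strand: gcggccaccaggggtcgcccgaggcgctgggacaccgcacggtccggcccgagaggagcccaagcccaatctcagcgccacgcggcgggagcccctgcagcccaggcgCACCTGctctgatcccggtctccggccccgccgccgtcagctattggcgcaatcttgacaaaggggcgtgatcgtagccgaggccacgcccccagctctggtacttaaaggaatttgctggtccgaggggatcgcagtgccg
Twist2, chr9:99821992-99822241, plus strand: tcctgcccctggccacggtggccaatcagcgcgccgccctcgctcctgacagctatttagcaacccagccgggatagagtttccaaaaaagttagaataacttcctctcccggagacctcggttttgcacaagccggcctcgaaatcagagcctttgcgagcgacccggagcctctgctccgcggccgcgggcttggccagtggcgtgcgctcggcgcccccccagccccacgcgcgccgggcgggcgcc
Zeb2, chr3:49754324-49754573, minus strand: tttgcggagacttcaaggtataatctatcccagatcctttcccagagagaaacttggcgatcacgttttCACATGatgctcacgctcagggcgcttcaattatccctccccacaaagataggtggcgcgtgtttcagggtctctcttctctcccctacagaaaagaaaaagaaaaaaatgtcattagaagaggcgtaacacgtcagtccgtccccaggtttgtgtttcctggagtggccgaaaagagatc
Vim, chr17:81577011-81577260, plus strand: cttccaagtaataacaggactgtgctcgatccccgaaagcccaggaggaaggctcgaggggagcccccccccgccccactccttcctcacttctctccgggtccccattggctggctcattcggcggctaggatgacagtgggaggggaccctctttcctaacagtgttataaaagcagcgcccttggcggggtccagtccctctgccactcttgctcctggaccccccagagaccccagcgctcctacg
The Snai1 window held a single E-box, CACCTG, which began 142 bases before the start, and the Zeb2 window held CACATG 181 bases before the start. The windows of Twist2 and Vim held none. Of all 33469 promoter windows of this length, 65.5% held CANNTG and 15.9% held CACCTG or CAGGTG. A match is a description of the sequence and shows no binding.

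Expression was deposited as FPKM (fragments per length of transcript and per depth of sequencing), a unit in which levels of different genes can be compared. The number of reads behind a value is unknown. limma was run within each table on log2(FPKM + 0.1), for entries that reached 0.5 FPKM in 3 or more of the 6 samples, which were 15029 entries under adenine and 15043 after UUO. A gene is said to have risen or fallen when the Benjamini-Hochberg adjusted p over all tested entries was under 0.05, and it was a DEG when the absolute log2 fold change was also at least 2, the threshold of the study. Over all tested entries the log2 fold change had a median of 0.30 under adenine and 0.62 after UUO, so that values near these medians were typical of the table. The FPKM sum of all entries was 564972 to 582725 in control samples, 468389 to 487770 in adenine samples, 619664 to 630244 in sham and 528811 to 539011 in UUO samples. The 10 highest genes held 28.3% to 31.7% of the sum in control, 16.5% to 18.9% in adenine, 28.1% to 31.8% in sham and 11.7% to 12.8% in UUO samples. Median-of-ratios scaling, in which the typical gene is set to the same level in every sample, brought the medians to 0.014 and 0.032.

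All 10 genes reached the minimum FPKM in both tables. Twist2 was under 0.5 FPKM in all 3 control and all 3 sham samples, and Snai2 in all 3 sham samples, so there these genes were tested because of their level in the model group and could hardly be called other than higher. In the adenine model 4 of the 10 rose (Snai1, Twist2, Zeb2 and Vim), where 39.6% of all tested entries rose. By limma 0 of the 10 fell at the adjusted threshold, where 19.9% of all entries fell. At an unadjusted p under 0.05 none of the 10 fell either, but the share of all entries at that threshold is not given for either model. In the UUO model 8 of the 10 rose, beside 56.1% of all entries, and 0 fell at either threshold by limma, beside 14.4% at the adjusted one. Changes in either direction made up 59.4% of entries with adenine and 70.5% with UUO. The genes that did not pass after UUO were Cdh2 and Cdh16. Without Twist2, 2 of 5 transcription factors rose under adenine, and without Snai2 and Twist2 4 of 4 rose after UUO. Of the 4 cadherin and vimentin genes 1 rose under adenine and 2 after UUO. There were 3 upregulated DEGs among the 10 in each model, Twist2, Zeb2 and Vim under adenine, where 10.7% of entries were upregulated DEGs, and Snai1, Twist2 and Vim after UUO, where 13.2% were. Apart from Twist2, which was tested because of the model groups, these were Zeb2 and Vim under adenine and Snai1 and Vim after UUO. There were 0 downregulated DEGs among the 10, beside 5.03% and 4.21% of entries by limma, and DEGs of either direction made up 15.7% and 17.4%. The samples of a model and its reference group did not overlap for 5 of the 10 genes with adenine (68.0% of all entries), 4 of them higher and Cdh16 lower (23.0%), and for 8 with UUO (75.7%), all higher. The median log2 fold change of the 10 genes was 0.46 under adenine and 1.31 after UUO. With median-of-ratios scaling 4 rose and 2 fell under adenine, and 5 rose and 2 fell after UUO. The shares of all entries that rose or fell with that scaling are not given. Counts with that scaling, here and below, therefore have no background beside them.

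**Figure D1:**
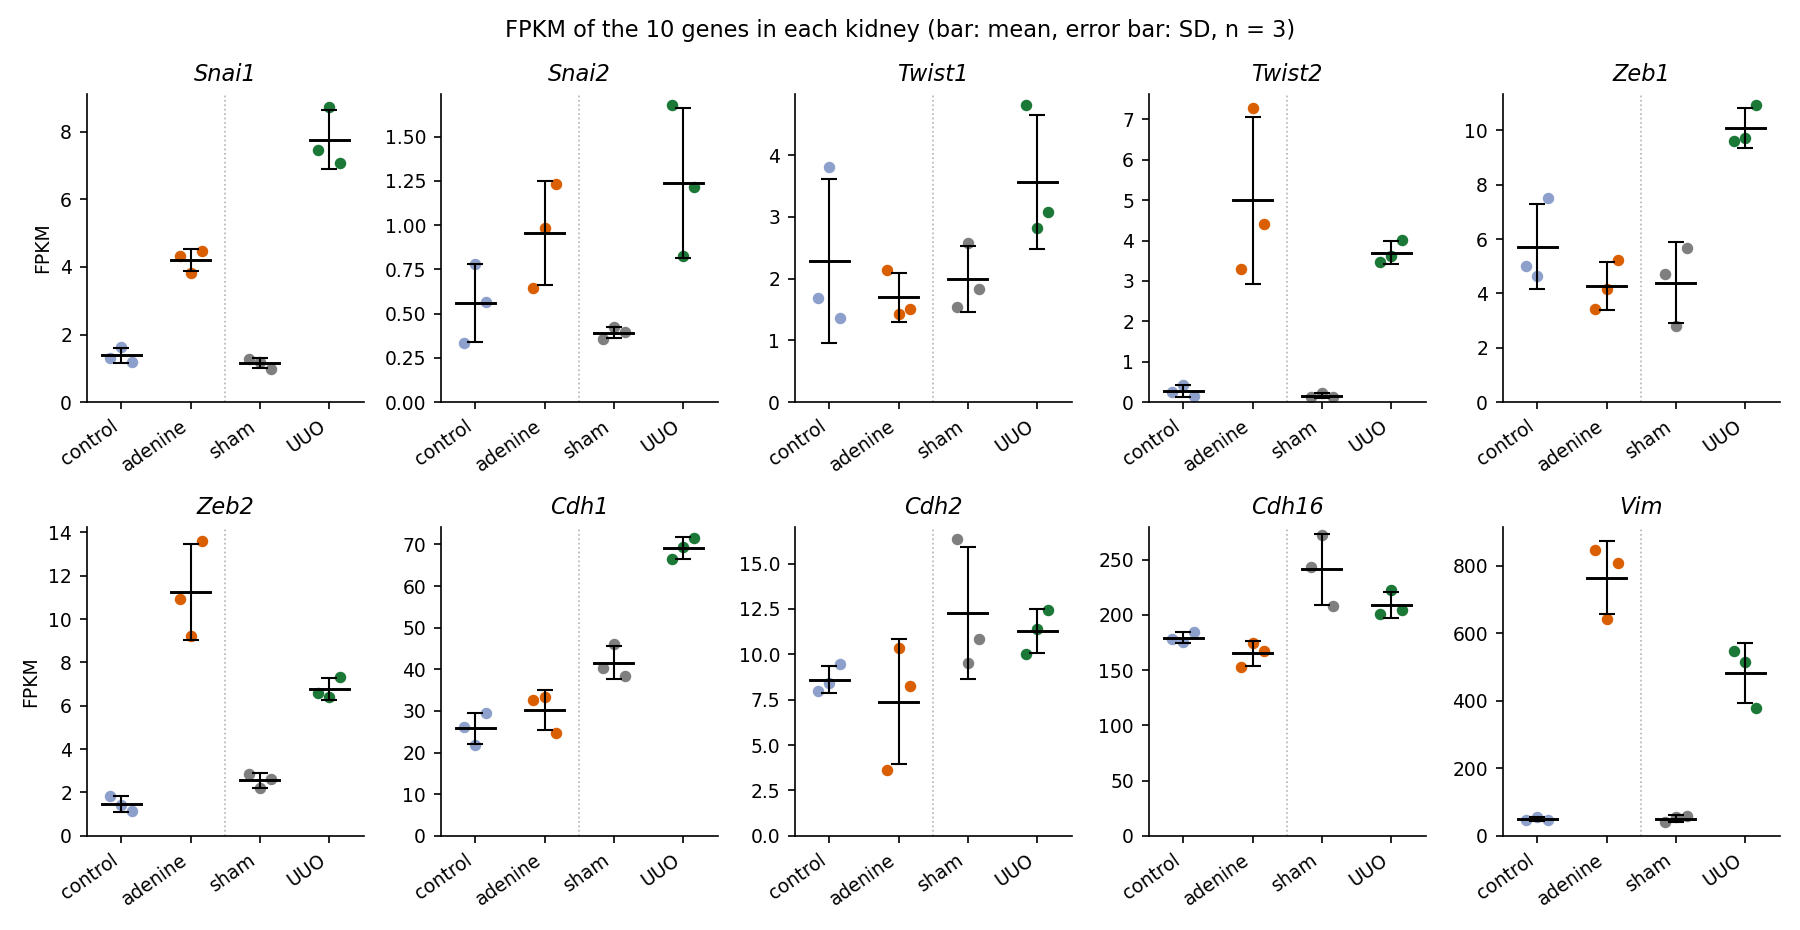
FPKM (y axis, linear, from 0) of each of the 10 genes in kidneys of control, adenine, sham and UUO rats (x axis), where points are single rats, horizontal bars are means and error bars are SD (n = 3). Snai1, Twist2, Zeb2 and Vim lie apart between each model and its reference group, and Cdh2 overlaps in both.

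Snai1 encodes the zinc finger repressor Snail. FPKM of Snai1 was 1.305, 1.64 and 1.20 in control kidneys and 4.33, 3.83 and 4.46 in adenine kidneys. It was 1.29, 1.19 and 0.990 in sham kidneys and 7.46, 8.74 and 7.07 in UUO kidneys. All samples of each model lay above all samples of its reference group, as for 45.0% of all tested entries under adenine and 60.0% after UUO. Mean FPKM with adenine was 3.04-fold that of control, which was 1.55 on the log2 scale (adjusted p = 0.00059 by limma, SE 0.19). The UUO group was 6.72 times as high as sham, a log2 fold change of 2.65 (adjusted p = 3.7e-05 by limma, SE 0.17). This was 2.07 with median-of-ratios scaling and 1.86 with quantile normalization, the latter under the threshold for a DEG.

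Snai2, which encodes the related repressor Slug, was among the lowest of the 10 genes in every group. Control samples had 0.335, 0.778 and 0.568 FPKM and adenine samples 0.645, 0.985 and 1.23 FPKM, and the groups overlapped. The log2 fold change was 0.69 (adjusted p = 0.146 by limma, SE 0.37), with a 95% confidence interval from -0.19 to 1.57. In the sham samples FPKM of Snai2 was 0.357, 0.423 and 0.399, and in UUO kidneys it was 1.68, 0.825 and 1.21, all above sham. All sham samples were under 0.5 FPKM, so Snai2 was tested there because of the UUO samples and could hardly be called lower. Snai2 rose after UUO by a log2 fold change of 1.39 (adjusted p = 0.00635 by limma, SE 0.31). With quantile normalization this was 0.43 with adjusted p = 0.290, and with median-of-ratios scaling 0.87 with adjusted p = 0.0491.

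The Twist genes encode basic helix-loop-helix factors of the embryonic mesenchyme. Twist2 was the lowest of the 10 genes in both reference groups, at 0.263, 0.426 and 0.151 FPKM in control kidneys and 0.129, 0.228 and 0.141 FPKM in sham kidneys. The adenine samples had 3.29, 7.28 and 4.42 FPKM and the UUO samples 3.47, 3.63 and 4.02 FPKM. No sample of either model reached down to the level of its reference group, and the 3 UUO samples lay closer together (SD 0.285) than the 3 adenine samples (SD 2.06). Twist2 rose by a log2 fold change of 3.73 (adjusted p = 0.000344 by limma, SE 0.39) under adenine and 3.85 (adjusted p = 3.54e-05 by limma, SE 0.25) after UUO. Since all control and sham samples were under 0.5 FPKM, it was tested because of the model groups and could hardly be called other than higher. At such low reference levels the added constant matters, and with a pseudocount of 1 the log2 fold changes were 2.18 and 2.01, while the means differed 17.8-fold and 22.3-fold.

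Twist1 had more RNA than Twist2 in the reference groups and changed less. Its FPKM was 1.69, 3.80 and 1.36 in control kidneys and 2.15, 1.43 and 1.52 in adenine kidneys, a log2 fold change of -0.30 (adjusted p = 0.542 by limma, SE 0.39) with a 95% confidence interval from -1.24 to 0.65. The second control sample was the highest of the 6, and without it the log2 fold change was 0.13. Sham samples had 1.54, 2.58 and 1.84 FPKM and UUO samples 4.80, 2.82 and 3.07 FPKM. All UUO samples lay above all sham samples, and the log2 fold change was 0.80 (adjusted p = 0.0372 by limma, SE 0.28). This call held under 8 of the 16 alternatives, among them the ratio of group means, which kept the adjusted p of the main fit. Adjusted p was 0.534 with median-of-ratios scaling, where the log2 fold change was 0.23, and 0.103, 0.088, 0.110 and 0.0573 without sham replicate 1, sham replicate 3, UUO replicate 1 and UUO replicate 3.

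Zeb1 and Zeb2 encode related zinc finger and homeodomain factors, and they differed most between the models. FPKM of Zeb2 was 1.85, 1.41 and 1.14 in control kidneys and 10.9, 9.22 and 13.6 in adenine kidneys. The sham samples had 2.84, 2.19 and 2.63 FPKM and the UUO samples 6.58, 6.38 and 7.34 FPKM. Both model groups were above their reference groups without overlap. Zeb2 rose by a log2 fold change of 2.87 (adjusted p = 0.000126 by limma, SE 0.23) under adenine and 1.38 (adjusted p = 0.000286 by limma, SE 0.16) after UUO. The UUO value was 0.79 with median-of-ratios scaling and 0.61 with quantile normalization (limma adjusted p = 0.00322 and 0.00685). Zeb2 is known to be expressed in macrophages and other leukocytes. All 9 tested leukocyte markers of 10 listed rose under adenine, 2 of which were under 0.5 FPKM in all control samples, and the sum of the markers was 40.6 to 52.2 FPKM in control samples and 826 to 1337 FPKM in adenine samples. All 10 rose after UUO, 3 of which were under 0.5 FPKM in all sham samples, with a sum of 47.7 to 56.6 FPKM in sham samples and of 408 to 493 FPKM in UUO samples, and no leukocyte marker was at the lowest value of the table in a whole group. Of all tested entries 39.6% rose under adenine and 56.1% after UUO. The part of the leukocyte markers in the change of Zeb2 was not tested. Relative to Ptprc, which encodes the leukocyte antigen CD45, the FPKM of Zeb2 was 0.586, 0.523 and 0.446 in control kidneys and 0.340, 0.470 and 0.351 in adenine kidneys, which overlapped. It was 1.27, 1.77 and 1.14 in sham kidneys and 0.526, 0.717 and 0.385 in UUO kidneys, all of them below sham.

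Zeb1 was the highest of the 6 transcription factors in the control and sham groups. Its FPKM was 5.01, 4.63 and 7.51 in control kidneys and 3.44, 4.16 and 5.21 in adenine kidneys, which overlapped. The log2 fold change was -0.40 (adjusted p = 0.193 by limma, SE 0.24), and it was -0.69 with adjusted p = 0.0405 after median-of-ratios scaling and -0.82 with adjusted p = 0.0186 after quantile normalization. In the UUO model Zeb1 went from 4.73, 2.79 and 5.68 FPKM in sham kidneys to 9.59, 9.73 and 10.9 FPKM in UUO kidneys, all above sham. It rose there by a log2 fold change of 1.24 (adjusted p = 0.00459 by limma, SE 0.26), but with median-of-ratios scaling the value was 0.64 with adjusted p = 0.0568 and with quantile normalization 0.54 with adjusted p = 0.0778. Of 9 listed endothelial markers 8 were found, and these had a sum of 128.5 to 171.8 FPKM in control samples and of 62.5 to 81.5 FPKM in adenine samples. Under adenine 5 fell and 2 rose, beside 19.9% and 39.6% of all entries. Sham samples had a sum of 134.3 to 154.6 FPKM and UUO samples one of 225 to 267 FPKM. Of the 8 markers 4 rose and 1 fell after UUO, beside 56.1% and 14.4% of all entries. With median-of-ratios scaling 2 rose and 2 fell after UUO, and the median log2 fold change of the list was 0.55 as deposited and -0.045 with that scaling. No marker was at the lowest value of the table in a whole group. Of the 8 fibroblast and pericyte markers given below with Vim, 7 rose and 1 fell under adenine and all 8 rose after UUO. The part of either list in the values of Zeb1 was not tested.

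Cdh1 encodes E-cadherin of epithelial adherens junctions. Its FPKM was 26.1, 21.8 and 29.4 in control kidneys and 32.7, 33.3 and 24.7 in adenine kidneys. The groups overlapped, and the log2 fold change was 0.22 (adjusted p = 0.278 by limma, SE 0.17) with a 95% confidence interval from -0.17 to 0.62. With every sample rescaled to an equal FPKM sum it was 0.49 with adjusted p = 0.0353, and with median-of-ratios scaling it was -0.067 with adjusted p = 0.762. In the UUO model Cdh1 went from 40.3, 46.1 and 38.4 FPKM in sham kidneys to 66.4, 69.5 and 71.5 FPKM in UUO kidneys, with no overlap. It rose by a log2 fold change of 0.74 (adjusted p = 0.000478 by limma, SE 0.093), which was close to the median of 0.62 over all tested entries. After median-of-ratios scaling the value was 0.14 with adjusted p = 0.319, and after quantile normalization it was 0.54 with adjusted p = 0.00143. A fall of Cdh1 RNA was not called in either model under any of the 16 alternatives tried. Markers of urothelium, which also expresses E-cadherin, summed to at most 1.39 FPKM in sham samples and to between 157 and 182 FPKM in UUO samples, and to at most 5.51 and 5.95 FPKM in control and adenine samples. Each of the 6 was under 0.5 FPKM in all sham samples and was tested there only because of its level in UUO samples. Their part in the level of Cdh1 was not tested.

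Cdh16 encodes Ksp-cadherin, named for its expression in kidney, and was the highest of the 10 genes in both reference groups. FPKM of Cdh16 was 178.0, 175.2 and 184.5 in control kidneys and 153.0, 174.5 and 167.5 in adenine kidneys, all just below control. The log2 fold change was -0.12 (adjusted p = 0.322 by limma, SE 0.099) with a 95% confidence interval from -0.36 to 0.11. The sham samples had 243, 272 and 208 FPKM and the UUO samples 201, 223 and 204 FPKM, which overlapped, with a log2 fold change of -0.20 (adjusted p = 0.173 by limma, SE 0.12). Against the median of its table Cdh16 was lower, and with median-of-ratios scaling it fell in both models, by 0.41 on the log2 scale (limma adjusted p = 0.0127) under adenine and by 0.80 (limma adjusted p = 0.00288) after UUO. With quantile normalization neither passed, at 0.068 and -0.12, and with FPKM rescaled to the same sum the values were 0.15 and 0.028. Without the third sham sample the UUO value was -0.30 with adjusted p = 0.0443.

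Most markers of distal tubule segments, where Cdh16 is also expressed, fell in the same samples. Of 9 markers of the loop, distal tubule and collecting duct, 6 fell under adenine, beside 19.9% of all entries. The median log2 fold change over the 9 was -1.20. After UUO all 9 markers fell, beside 14.4% of all entries, with a median of -2.97. Umod, which encodes the uromodulin of the thick ascending limb, had the lowest value of these under adenine, at 1439 ± 203 FPKM (SD, n = 3) for control and 143.1 ± 67.1 FPKM for adenine, or -3.43 on the log2 scale (adjusted p = 0.000266 by limma, SE 0.34). For Calb1, which encodes the calcium-binding protein calbindin of the distal tubule, the UUO model gave the lowest value, -4.93 (adjusted p = 0.000484 by limma, SE 0.63). Their part in the values of Cdh16 was not tested. Markers of proximal and distal tubules and of podocytes were present in every group.

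Cdh2 encodes N-cadherin. Control samples had 7.98, 8.40 and 9.45 FPKM and adenine samples 3.61, 10.3 and 8.24 FPKM, where the first adenine sample was the lowest and the second the highest of the 6. The log2 fold change was -0.34 (adjusted p = 0.454 by limma, SE 0.37), with a 95% confidence interval from -1.22 to 0.54, and without the first adenine sample it was 0.10. In the UUO model FPKM was 16.4, 9.54 and 10.9 in sham kidneys and 10.002, 11.4 and 12.5 in UUO kidneys. The groups overlapped and the log2 fold change was -0.085 (adjusted p = 0.734 by limma, SE 0.21), with a 95% confidence interval from -0.59 to 0.42. With median-of-ratios scaling Cdh2 fell after UUO by 0.68 on the log2 scale (limma adjusted p = 0.0275). With quantile normalization the UUO value was -0.66 (limma adjusted p = 0.0302). A rise of Cdh2 was not called in either model under any of the 16 alternatives. Proximal tubule markers, 8 listed and 8 found, had a sum of 854 to 1809 FPKM in control samples, 61.1 to 333.8 FPKM in adenine samples, 1222 to 1720 FPKM in sham and 127.3 to 323.3 FPKM in UUO samples. Of these 4 fell and 1 rose under adenine, beside 19.9% and 39.6% of all entries, and 5 fell after UUO, beside 14.4%. No proximal tubule marker was at the lowest value of the table in a whole group, and their part in the values of Cdh2 was not tested.

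Vim, the gene for vimentin, had the largest log2 fold change of the 10 genes under adenine with the pseudocount of 0.1. With a pseudocount of 0.01 Twist2 was higher, at 4.15 against 3.93, and the means of Twist2 differed more, by 17.8-fold. FPKM of Vim was 48.1, 56.3 and 45.5 in control kidneys and 846, 642 and 808 in adenine kidneys. In the sham samples it was 40.1, 54.8 and 57.3, and in UUO kidneys 547, 516 and 380. The model groups stood far apart from their reference groups, by 15.3-fold and 9.48-fold in mean FPKM. Log2 fold changes were 3.93 (adjusted p = 2.38e-05 by limma, SE 0.15) under adenine and 3.24 (adjusted p = 2.61e-05 by limma, SE 0.19) after UUO. Vim RNA exceeded that of Cdh16 in both model groups, where it ranked first of the 10 genes, and ranked below Cdh16 in both reference groups. Leukocyte markers rose with it as given above. Fibroblast and pericyte markers, all 8 found, had a sum of 93.7 to 137.7 FPKM in control samples and of 554.9 to 774.4 FPKM in adenine samples, where 7 rose and 1 fell, and of 93.3 to 106.7 FPKM in sham and 1178 to 2507 FPKM in UUO samples, where all 8 rose, 2 of them from under 0.5 FPKM in all sham samples. Of all tested entries 39.6% rose and 19.9% fell under adenine, and 56.1% rose after UUO. No fibroblast marker was at the lowest value of the table in a whole group, and their part in the change of Vim was not tested. Relative to Pdgfrb, which encodes a receptor of fibroblasts and pericytes, the FPKM of Vim was 4.87, 7.80 and 4.06 in control kidneys and 33.3, 22.0 and 30.5 in adenine kidneys, without overlap, and it was 10.8, 18.0 and 14.6 in sham kidneys and 18.8, 16.9 and 12.4 in UUO kidneys, which overlapped. Relative to Ptprc it was 15.3, 20.8 and 17.9 in control kidneys and 26.3, 32.7 and 20.8 in adenine kidneys, where the lowest adenine value was 20.81 and the highest control value 20.85, and it was 17.9, 44.3 and 24.9 in sham kidneys and 43.8, 58.0 and 19.9 in UUO kidneys.

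**Figure D2:**
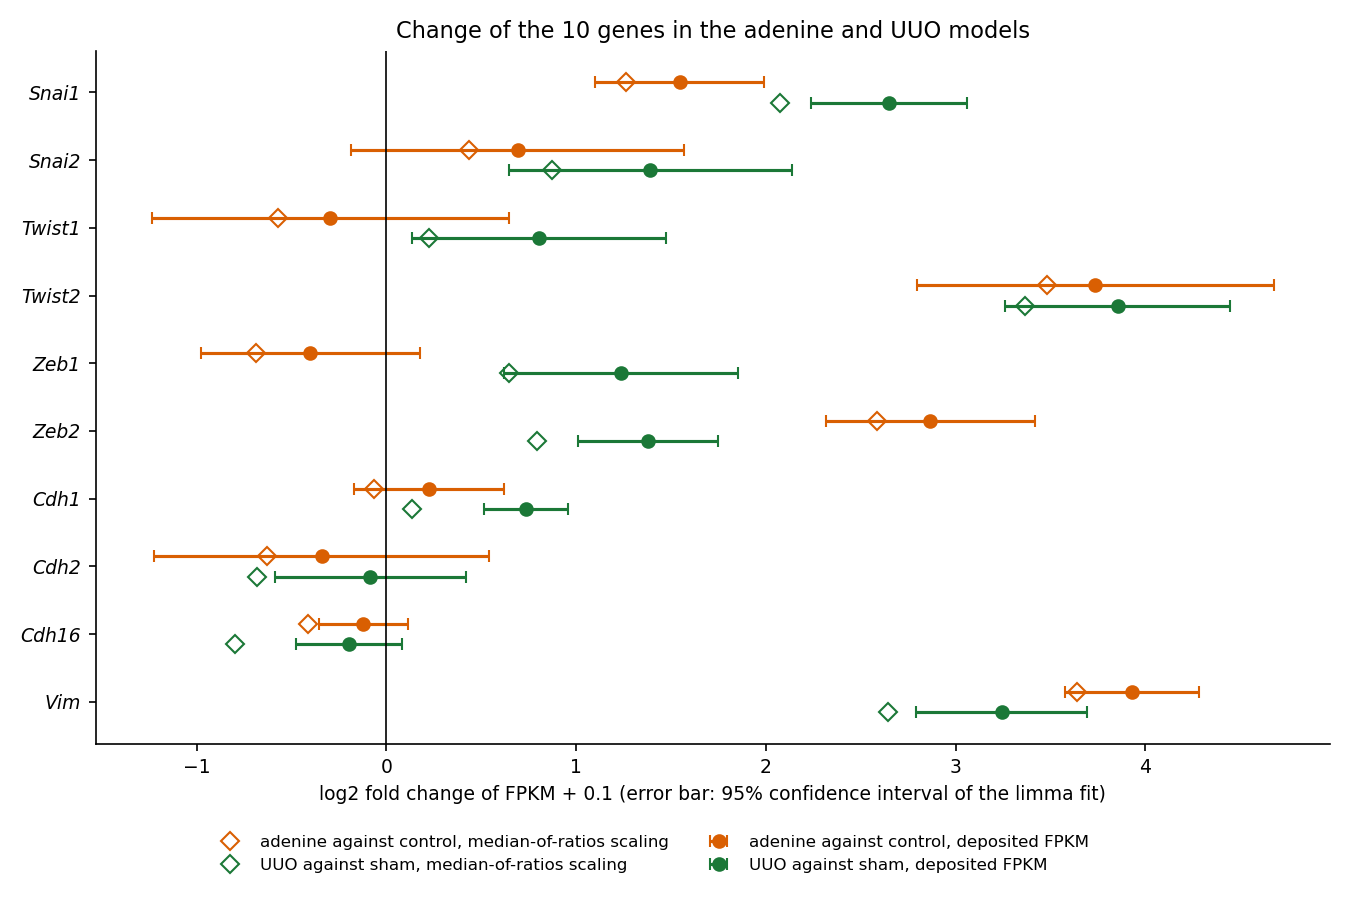
Log2 fold change of FPKM + 0.1 (x axis) of the 10 genes (y axis) for adenine against control and UUO against sham, with filled points for deposited FPKM, error bars for the 95% confidence interval of the limma fit and open diamonds for median-of-ratios scaling. Snai1, Twist2, Zeb2 and Vim lie above 0 in both models with either scaling, whereas the values of Cdh1, Cdh2 and Cdh16 lie between -0.80 and 0.74 and that of Cdh1 under adenine changes sign with the scaling.

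Some levels were close in order. In the control group Cdh16, Vim, Cdh1, Cdh2 and Zeb1 followed each other without overlap between neighbours, and below them Twist1, Zeb2 and Snai1 overlapped, as did Snai2 and Twist2. The sham group had the same first 5 genes, although the values of Vim and Cdh1 overlapped there, as did those of Zeb1 with Zeb2 and of Zeb2 with Twist1. In the adenine group Zeb2 stood next after Cdh1, and neighbours overlapped in the order Zeb2, Cdh2, Twist2, Zeb1 and Snai1. In the UUO group Zeb1 overlapped Cdh2, and Snai1, at 7.76 ± 0.872 FPKM (SD, n = 3), overlapped Zeb2, at 6.77 ± 0.506 FPKM.

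Ratios of FPKM within a sample do not depend on how samples are scaled to each other, and they are given as values without a test. The ratio of Cdh2 to Cdh1, the pair of the cadherin switch of EMT, was 0.305, 0.385 and 0.321 in control kidneys and 0.111, 0.311 and 0.334 in adenine kidneys, which overlapped. It was 0.406, 0.207 and 0.283 in sham kidneys and 0.151, 0.164 and 0.174 in UUO kidneys, all of them below sham. The ratio of Cdh16 to Cdh1 was 6.81, 8.03 and 6.27 in control kidneys and 4.68, 5.25 and 6.78 in adenine kidneys, with overlap. In the sham samples it was 6.04, 5.91 and 5.41 and in UUO kidneys 3.02, 3.20 and 2.86, so that the composition of the epithelial cadherin RNA differed between the groups without overlap. The ratio of Vim to Cdh1 averaged 1.99 ± 0.532 (SD, n = 3) for control, 26.0 ± 6.71 for adenine, 1.23 ± 0.251 for sham and 6.99 ± 1.51 for UUO. Epcam encodes an adhesion molecule of epithelial cells. Relative to Epcam, Cdh1 was at 0.0954, 0.0584 and 0.0941 in control kidneys and 0.168, 0.127 and 0.107 in adenine kidneys, all above control, and at 0.123, 0.152 and 0.137 in sham kidneys and 0.166, 0.175 and 0.144 in UUO kidneys, which overlapped.

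**Figure D3:**
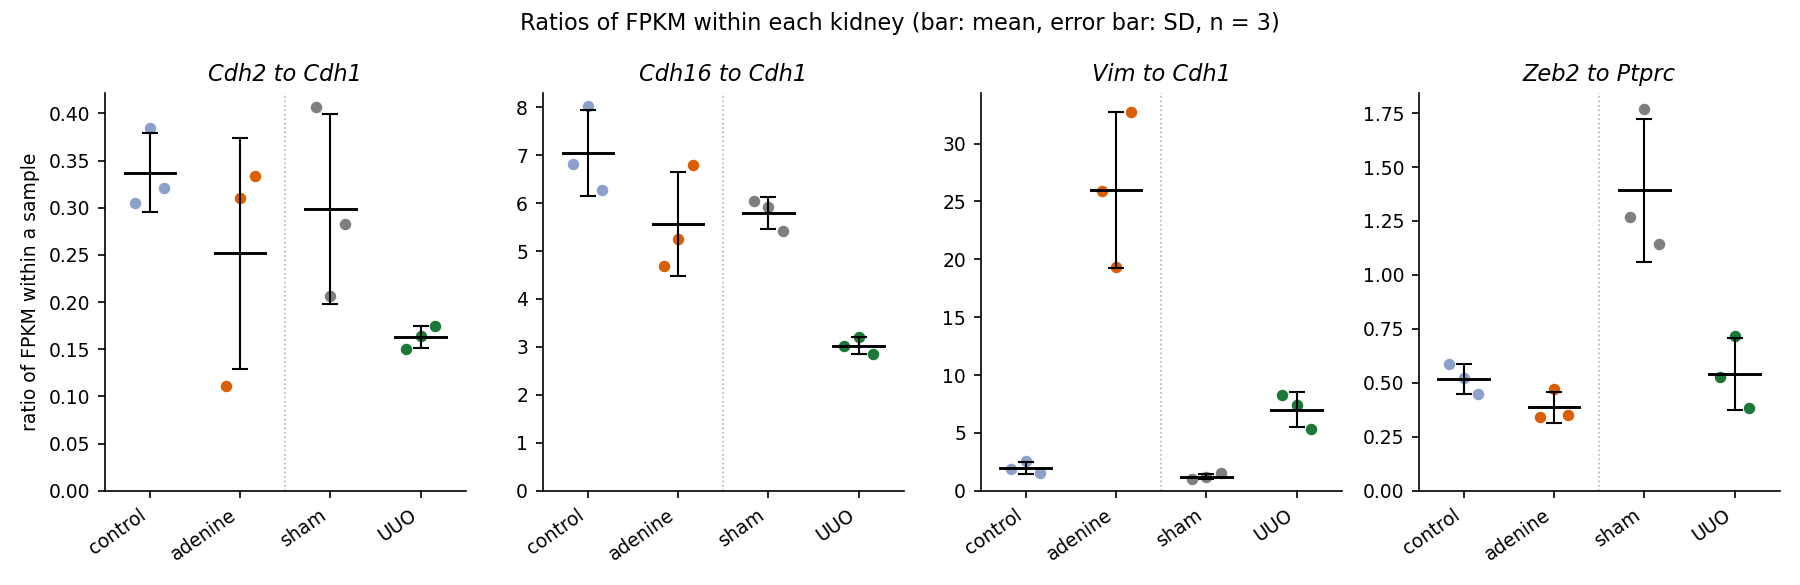
Ratio of the FPKM of Cdh2 to Cdh1, Cdh16 to Cdh1, Vim to Cdh1 and Zeb2 to Ptprc within each sample (y axes, linear, from 0) in the 4 groups (x axis), where points are single rats, horizontal bars are means and error bars are SD (n = 3). Cdh2 to Cdh1 and Cdh16 to Cdh1 are lower in all UUO samples than in all sham samples, and Vim to Cdh1 is higher in all samples of both models.

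The models were compared through the difference of their log2 fold changes, UUO minus adenine, divided by the root of the summed squared standard errors. Of the 13486 symbols listed once and tested in both tables, 27.0% differed at an adjusted p under 0.05, and of the 10 genes 4 did. Snai1 rose more after UUO, by a difference of 1.10 (adjusted p = 0.00739 from the limma fits, SE 0.25). Zeb1 was also higher after UUO, by a difference of 1.64 (adjusted p = 0.0053 from the limma fits, SE 0.35). Zeb2 rose more under adenine, with a difference of -1.49 (adjusted p = 0.00244 from the limma fits, SE 0.28). These held under all 21 alternatives, but for Snai1 only narrowly with median-of-ratios scaling, at 0.81 (adjusted p = 0.0490 from the limma fits). For Vim the difference was -0.69 (adjusted p = 0.0487 from the limma fits, SE 0.24), and it passed in 9 of the 21 alternatives. Cdh1 had a difference of 0.51 (SE 0.19, adjusted p = 0.0618), with a 95% confidence interval from 0.10 to 0.92. The interval of Twist2 ran from -0.88 to 1.12 around a difference of 0.12, and that of Cdh16 from -0.41 to 0.26 around -0.076. For Snai2, Twist1 and Cdh2 the differences were 0.70, 1.10 and 0.26 (adjusted p = 0.300, 0.106 and 0.687).

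To place the patterns, the profile of each gene over the 12 samples was centred on its reference groups, and the genes with the smallest root mean square difference of log2 values were named among 12277 genes. Nearest to Zeb2 were Rbpj, which encodes the DNA-binding partner of Notch, at 0.15, and Soat1, an enzyme of cholesterol ester formation, at 0.18. Nearest to Vim were Fxyd5, which encodes a membrane protein that regulates the sodium pump, at 0.16, and Selplg, which encodes the selectin ligand of leukocytes, at 0.22. Snai1 lay nearest to Tpst1, a sulfotransferase gene, at 0.19, and to Nuak1, a kinase gene, at 0.19. Cdh1 lay nearest to Ephb4, a receptor of ephrins, at 0.085, and Naa10, an acetyltransferase, at 0.097. Cdh16 lay nearest to Mterf4 and Chchd4, genes for mitochondrial proteins, at 0.076 and 0.083. For Zeb1 these were Zcchc7 at 0.20 and AC130970 at 0.22, for Twist2 Rhou and A3galt2 at 0.33, for Cdh2 Prkca at 0.21 and Phldb2 at 0.22, for Snai2 Tedc1 at 0.23 and Slc41a3 at 0.24, and for Twist1 Snrpg at 0.23 and Nek5 at 0.27.

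Of 12 other cadherins, 6 were tested under adenine and all 6 rose, beside 39.6% of all entries, with a median log2 fold change of 1.25. After UUO 6 of 7 tested rose, beside 56.1% of all entries, with a median of 2.48. Cdh17 was tested only because of its level in the model groups, and without it the counts were 5 of 5 and 5 of 6. Cdh6, which encodes K-cadherin of the developing kidney, went from 1.11 ± 0.310 (SD, n = 3) to 8.11 ± 4.13 FPKM under adenine and from 2.25 ± 0.599 to 13.2 ± 3.31 FPKM after UUO, log2 fold changes of 2.62 (adjusted p = 0.00325 by limma, SE 0.47) and 2.50 (adjusted p = 0.000201 by limma, SE 0.26). Cdh11, the OB-cadherin of mesenchymal cells, had log2 fold changes of 1.14 (limma adjusted p = 0.0222) and 2.46 (limma adjusted p = 5.9e-05). Endothelial Cdh5 had 0.84 (limma adjusted p = 0.0206) and 2.48 (limma adjusted p = 0.000201), and Cdh17 the highest values, 3.57 and 3.98, from a level near 0. The lowest was Cdh4 after UUO, at -0.42 (limma adjusted p = 0.162), which was -0.95 with median-of-ratios scaling (limma adjusted p = 0.0142). With median-of-ratios scaling 3 of the 6 rose under adenine, Cdh11 and Cdh5 no longer passing, and 5 rose and 1 fell after UUO.

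Catenins link cadherins to actin. Of 10 listed genes of catenins and junction partners, 6 rose and 1 fell under adenine, beside 39.6% and 19.9% of all entries. The median log2 fold change was 0.91. After UUO 8 rose, beside 56.1% of all entries, with a median of 0.93. Ctnna1 (alpha-catenin), Ctnnb1 (beta-catenin) and Ctnnd1 (p120-catenin) had log2 fold changes of 1.08, 0.85 and 0.96 under adenine and 0.86, 0.99 and 0.996 after UUO, and all passed. Jup, which encodes plakoglobin, was at -0.11 (limma adjusted p = 0.488) under adenine and 1.31 (limma adjusted p = 0.00442) after UUO. Nectin2 had the highest values, 1.21 and 2.52, and Ctnnal1 the lowest, -0.82 and 0.19. With median-of-ratios scaling 6 rose and 3 fell under adenine and 4 rose and 1 fell after UUO, where Ctnna1 and Jup no longer passed and Ctnnal1 fell, at -0.41 (limma adjusted p = 0.0195). With that scaling Jup fell under adenine, at -0.40 (limma adjusted p = 0.0310).

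Genes of epithelial identity and junctions were mixed. Of 19 tested, 6 rose and 5 fell under adenine, beside 39.6% and 19.9% of all entries. After UUO 12 rose and 1 fell, beside 56.1% and 14.4% of all entries. The medians were 0.20 under adenine, beside 0.30 for all entries, and 0.65 after UUO, beside 0.62. Epcam fell under adenine, from 320.1 ± 50.3 FPKM (SD, n = 3) to 229.3 ± 33.7 FPKM (log2 fold change -0.48, limma adjusted p = 0.0434), and rose after UUO from 303.2 ± 23.3 to 430.9 ± 56.9 FPKM (0.50, limma adjusted p = 0.00885), a rise that was -0.099 with median-of-ratios scaling. Esrp1, a splicing factor of epithelial cells, had 0.49 (limma adjusted p = 0.0796) and 0.68 (limma adjusted p = 0.0278), and Grhl2, an epithelial transcription factor, 0.50 (limma adjusted p = 0.159) and 0.53 (limma adjusted p = 0.0151), where the UUO values of both were lost with that scaling. Ovol1, which encodes a repressor that favours the epithelial state, was the lowest in both models, at -1.75 (limma adjusted p = 0.00109) and -1.004 (limma adjusted p = 0.000747). Dsg2, a desmosomal cadherin, was the highest under adenine at 1.93 and Elf3, an epithelial transcription factor, after UUO at 2.33. With median-of-ratios scaling 3 rose and 5 fell under adenine and 6 rose and 3 fell after UUO.

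Mesenchymal genes stood in contrast. Of 18 tested, 17 rose under adenine and all 18 after UUO, beside 39.6% and 56.1% of all entries. The median log2 fold changes were 2.51 and 3.20, and 16 rose in each model with median-of-ratios scaling. Fap under adenine and Postn after UUO were under 0.5 FPKM in all reference samples, and without them 16 of 17 and 17 of 17 rose. Fn1, which encodes fibronectin, went from 12.2 ± 5.49 (SD, n = 3) to 557 ± 274 FPKM and from 16.4 ± 2.22 to 187.7 ± 55.0 FPKM, log2 fold changes of 5.46 and 3.47. S100a4, called fibroblast-specific protein but also expressed in leukocytes, had 3.43 and 3.11, and both genes passed in both models. Acta2, which encodes the smooth muscle actin of myofibroblasts, was the lowest under adenine, at 21.0 ± 8.36 and 39.3 ± 5.77 FPKM in the control and adenine groups (log2 fold change 0.96, limma adjusted p = 0.0198), and was at 24.3 ± 10.4 and 261 ± 184 FPKM in the sham and UUO groups (3.29, limma adjusted p = 0.00124). The adenine value of Acta2 was lost with median-of-ratios scaling (limma adjusted p = 0.0668). Postn, which encodes the matrix protein periostin, was the highest after UUO at 6.37, with a wide spread of 33.3 ± 34.8 FPKM, and Nes the lowest at 1.09, which was 0.49 with median-of-ratios scaling (limma adjusted p = 0.0841).

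Among 25 other transcription regulators tied to EMT, 7 rose and 3 fell of 17 tested under adenine. These counts were near the shares of all entries, 39.6% and 19.9%, and the median of 0.30 was that of all entries. After UUO 13 rose and 1 fell of 18 tested, beside 56.1% and 14.4% of all entries, with a median of 0.97. Runx1, a factor of blood and mesenchymal cells, had the highest values, 3.82 and 3.78, but was under 0.5 FPKM in all control and all sham samples and was tested only because of its level in the model groups. The same held for Runx2 and Lef1 after UUO, and without these genes 6 of 16 rose under adenine and 10 of 15 after UUO. Id4, which encodes an inhibitor of basic helix-loop-helix factors, was the lowest in both, at -3.28 (limma adjusted p = 0.000192) and -2.32 (limma adjusted p = 0.00126). Of 18 tested genes listed for TGF-beta and other inducing signals, 11 rose and 2 fell under adenine, with a median of 0.95. The shares of all entries were 39.6% and 19.9%. The list also held an inhibitor, Smad6, which was among the fallen genes. After UUO 15 rose, beside 56.1% of all entries, with a median of 1.15. Tgfb1, the classic inducer of EMT, had log2 fold changes of 3.63 and 2.84 and was the highest under adenine, and Tgfb3 was the highest after UUO at 3.93. Smad6, an inhibitor of BMP signals, was the lowest under adenine at -1.60 (limma adjusted p = 0.0121), and Jag1, a Notch ligand, was the lowest after UUO at -0.084 (limma adjusted p = 0.579), which was -0.68 with median-of-ratios scaling (limma adjusted p = 0.00544). With median-of-ratios scaling the regulators gave 4 risen and 3 fallen genes under adenine and 9 and 5 after UUO, and the signals 11 and 3, and 12 and 2.

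**Figure D4:**
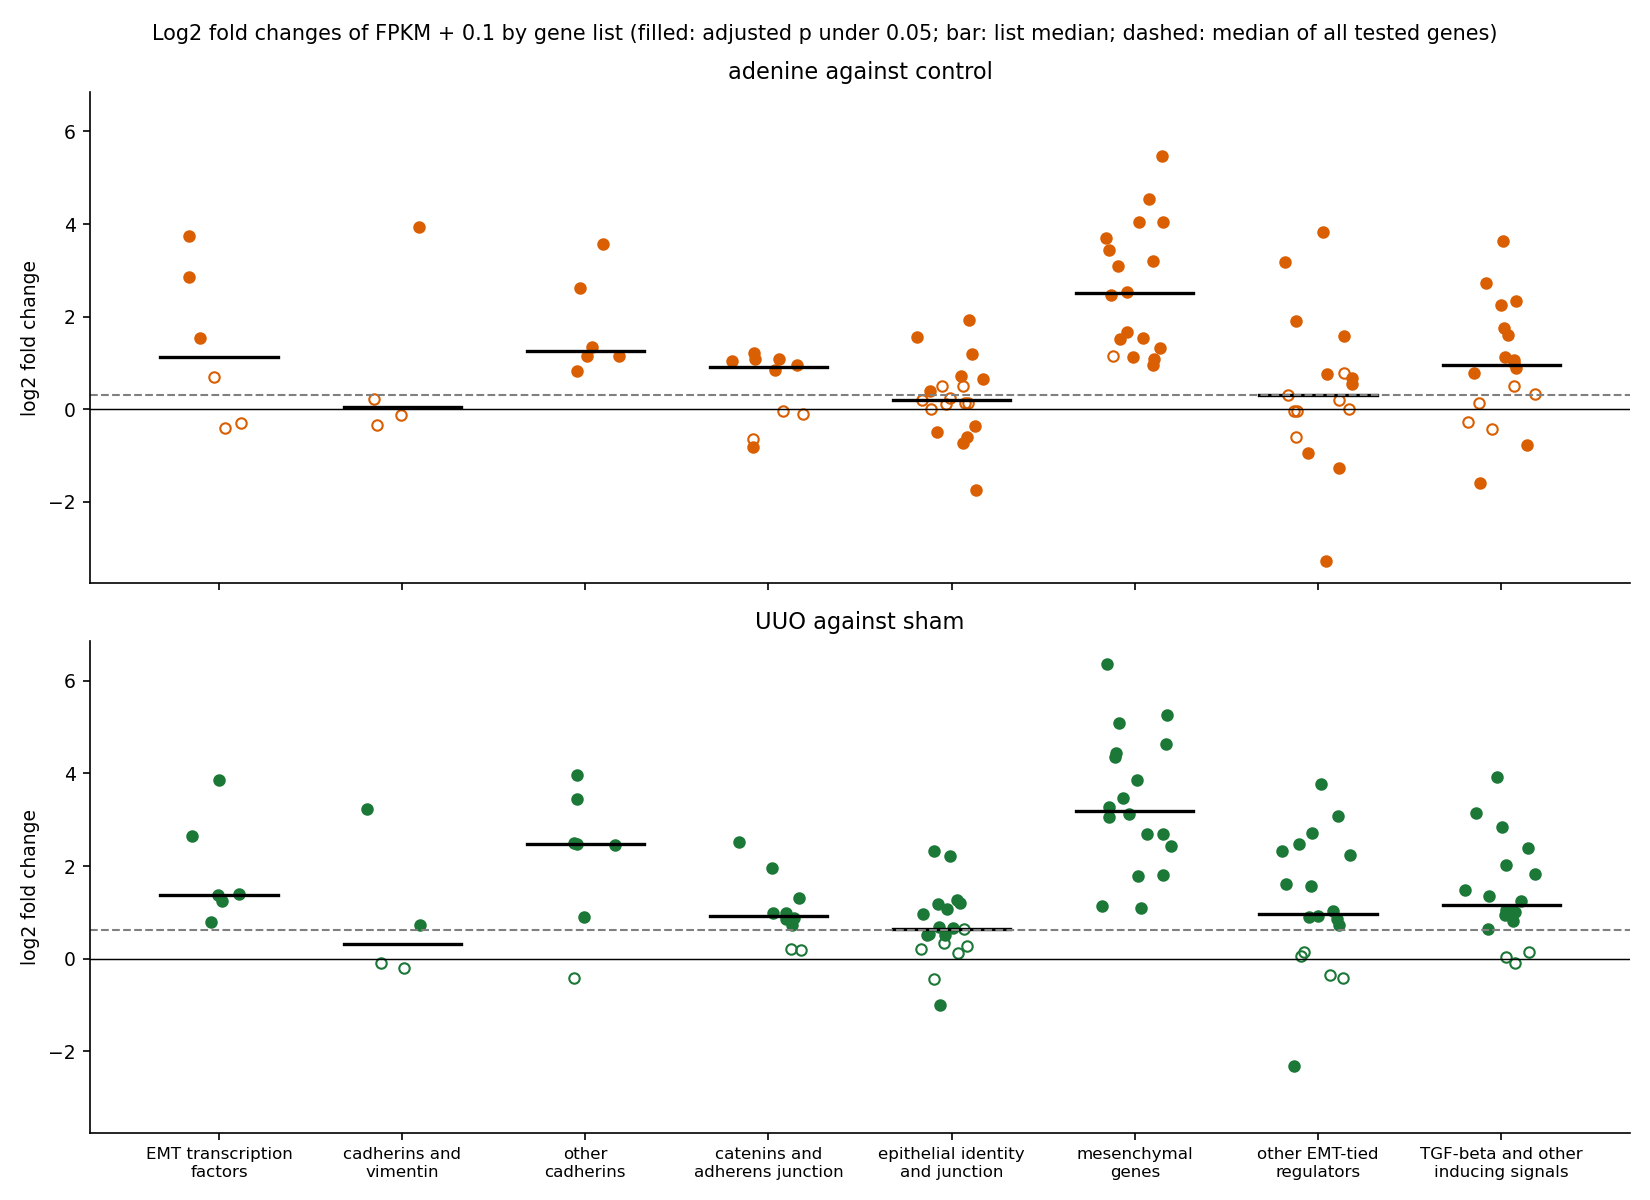
Log2 fold change of FPKM + 0.1 (y axis) of the tested genes of each list (x axis) for adenine against control (top) and UUO against sham (bottom), where filled points had an adjusted p under 0.05, open points did not, solid bars are list medians and dashed lines are the medians of all tested entries. Mesenchymal genes have medians of 2.51 and 3.20, whereas the medians of epithelial genes, 0.20 and 0.65, lie near the dashed lines at 0.30 and 0.62 and come to -0.091 and 0.054 with median-of-ratios scaling.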

How the data were processed

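The authors deposited FPKM values per gene in 2 tables, calculated from trimmed, aligned and assembled reads. The submitters' processing notes name cutadapt 1.9, HISAT2 2.0.4, StringTie 1.3.4d, edgeR and DESeq2. The genome build is not given in the sources used here, so genes were identified by symbol, and promoters were taken from RefSeq by symbol. Tables were fitted separately with limma 3.58.1 (lmFit, eBayes with a trend) in R 4.3.3, without a replicate block, which was an alternative. Other steps used Python 3.11.15. A count test was not possible on FPKM. The fits were tested on simulated data. Samples were grouped by their labels, and replicates are separate rats. The members and gene lists were chosen with earlier results of these data known. Named genes were the members, the 2 genes with the nearest profile, the highest and lowest gene of each list, and a fixed set of junction, mesenchymal and inducing genes. Fap, Runx2 and Lef1 fall outside this rule and were named after their values were seen. Alternatives changed the pseudocount, filter, scaling, trend, block and fold change, or left out each sample. With the changed fold change, the ratio of group means, the adjusted p was that of the main fit. A two-sided exact permutation test of 3 against 3 samples cannot give a p under 0.1 and was not used.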

Additional observations from a re-analysis of the deposited data

Results flagged for a closer look

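Log2 fold changes of 4 genes differed between the UUO and adenine models by the test of the difference itself. UUO minus adenine, the difference was 1.10 for Snai1, 1.64 for Zeb1, -1.49 for Zeb2 and -0.69 for Vim. Over the 21 alternatives it ranged from 0.81 to 1.19 for Snai1, from 1.33 to 1.85 for Zeb1 and from -1.84 to -1.18 for Zeb2, each with an adjusted p under 0.05 throughout, and from -0.995 to -0.53 for Vim, with adjusted p between 0.0183 and 0.111. The highest adjusted p from the limma fits was 0.0490 for Snai1, 0.0163 for Zeb1 and 0.00901 for Zeb2. The errors of the 2 tables were combined as if unrelated. The models differ in agent, duration and surgery, which cannot be told apart. Groups of 3 were not examined for outlying samples.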

How the results depend on the processing

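The log2 fold changes of Snai1, Twist2, Zeb2 and Vim stayed above 0 and past the threshold in both models under all 16 alternatives. Among these, the ratio of group means kept the adjusted p of the main fit, so there only the sign of a single gene could change. Twist2 was under 0.5 FPKM in all control and sham samples, so it could hardly be called other than higher. Of 318 values of single genes under the alternatives, 290 kept their direction and side of the threshold, 11 lost it, 8 gained it and 9 changed sign. Those that changed sign were Cdh1 in the adenine model (-0.067, median-of-ratios scaling), Cdh16 in the adenine model (0.068 with quantile normalization and 0.15 with FPKM rescaled to the same sum), Twist1 in the UUO model (-0.0081, quantile normalization), Cdh2 and Cdh16 in the UUO model (0.14 and 0.028, FPKM rescaled to the same sum), and, with each sample left out in turn, Twist1 (-0.58 to 0.13) and Cdh2 (-0.64 to 0.10) in the adenine model and Cdh2 in the UUO model (-0.24 to 0.14), where the signs changed without control replicate 2, adenine replicate 1 and sham replicate 1. Scaling moved calls near the median of all genes, as for Twist1 and Cdh1 after UUO, at 0.19 and 0.12 from it. It also moved calls further from the median, such as Cdh16 and Cdh2 after UUO, at -0.81 and -0.70. The cause of these changes was not tested. There were 2360 DEGs under adenine and 2613 after UUO, and with a pseudocount of 1 only 1320 and 1465, with 3 of the 10 genes DEGs in each. With quantile normalization 2 of the 10 were DEGs after UUO, since Snai1 was at 1.86. The upregulated share of DEGs was 68.0% and 75.8%, and 57.8% and 56.7% with median-of-ratios scaling, 52.8% and 50.9% with quantile normalization and 76.1% and 81.2% with FPKM rescaled to the same sum. Leaving out each sample gave 2264 to 2444 and 2534 to 2690 DEGs, 3 of the 10 genes in each model, 4 and 7 to 8 genes past adjusted p, and 3 to 5 genes that differed between the models. With a minimum FPKM of 1, Snai2 was not tested. Same-numbered samples did not deviate together in the adenine model (correlations from -0.12 to -0.049). They did so weakly in the UUO model (0.050 to 0.11), where each sample correlated best with its own number. Whether the numbers mark a shared effect there was not tested, and the main fit took the rats as unpaired. With the replicate block there were 2352 and 2609 DEGs, and Twist1 in the UUO model had a limma adjusted p of 0.0780. With it 3 genes in place of 4 differed between the models, Vim no longer passing. Read depth is unknown and limits the low values of Snai2 and Twist2 most.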
